A study of Mus musculus with 22 samples.

Results

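The comparison described here set control lung metastases from mice given phenformin against control lung metastases from mice given PBS. The arrays were chosen by their titles: 5 belonged to metastases of the control line under phenformin and 5 to metastases of the control line under PBS, 10 of the 22 arrays of the study. The mice had received NMuMG-ErbB2/VC cells through the tail vein. NMuMG is an epithelial line from mouse mammary gland, and per the line's name the cells carried the ErbB2 oncogene and a control vector (VC), which all 10 arrays therefore share. Phenformin was given for 1 week. Lungs were filled with diluted embedding medium and frozen, metastases were cut from the slides with a laser (laser capture microdissection), and each labelling reaction started from 10 ng of RNA, using a low-input kit. The other 12 arrays, 6 under phenformin and 6 under PBS, came from metastases of NMuMG-ErbB2/PGC-1alpha cells and served to estimate the spread and to compare the lines. The number of animals is not given, so p-values measure the spread between these samples, which may be technical.

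Phenformin is a biguanide related to metformin that inhibits respiratory complex I, the entry point for electrons from NADH into the mitochondrial respiratory chain. When respiration is slowed, cells can draw more of their ATP from glycolysis, the energy sensor AMPK can be activated, and mitochondrial stress can raise the transcription factor ATF4 and its amino acid synthesis targets. ErbB2 is a receptor tyrosine kinase of the epidermal growth factor receptor family that drives growth of mammary epithelium. The comparison asks which transcripts of ErbB2-carrying metastases differed after a week of such a drug.

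Over the 10 arrays the median log2 signal was 6.55 to 6.63 and the median negative control 4.61 to 5.05. The share of control pairs in which a positive control was brighter than a negative one was 0.902 to 0.938, with the lowest value on PBS array 1. Surfactant gene Sftpc, which marks alveolar type 2 cells of normal lung, averaged a log2 signal of 13.46 ± 0.06 in phenformin arrays and 13.40 ± 0.19 in PBS arrays (SD, n = 5 each), so the captured tissue held lung epithelium as well as tumour. The simple-epithelium keratin gene Krt18 averaged 12.47 ± 0.30 in phenformin arrays and 12.63 ± 0.23 in PBS arrays. Erbb2 averaged 7.91 ± 0.12 in phenformin arrays and 8.04 ± 0.25 in PBS arrays, a difference of −0.13 (SE 0.16). Ppargc1a, the gene of PGC-1alpha, averaged 8.04 ± 0.39 in phenformin arrays and 7.54 ± 0.60 in PBS arrays, a difference of 0.50 (SE 0.32). Whether the probe sets of Erbb2 and Ppargc1a detect the introduced sequences is not known. In captured tissue of this kind, fewer cells of a type and less RNA per cell cannot be told apart.

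No single gene separated phenformin from PBS in control metastases after correction for the number of genes. Of 15545 genes tested, 0 had a Benjamini-Hochberg adjusted p under 0.05 in limma (0% called), and the smallest adjusted p was 0.188. Without the correction 1498 genes had p under 0.05 (9.64%), of which 731 were higher (4.7%) and 767 were lower (4.93%) under phenformin. All 5 phenformin arrays lay above all 5 PBS arrays for 83 genes (0.534%) and below them for 116 genes (0.746%). The median difference over all genes was −0.01 on the log2 scale, with 7530 genes above 0 and 8015 below. On that scale 1 unit is a doubling of the signal.

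The data also bound how large a difference could have been missed. A gene's difference had a median SE of 0.16, and the 95% interval reached a median of 0.33 to each side. For 96.2% of genes the whole interval lay within a 2-fold difference in either direction, and for 70.6% it lay within a 1.5-fold difference. A gene that failed the test was therefore not shown to be equal in both groups. With genes ranked by signal into 5 equal parts, the brightest part had a median difference of 0.03 and the dimmest part one of −0.08, so dim genes sat slightly lower under phenformin as a class.

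**Figure D1:**
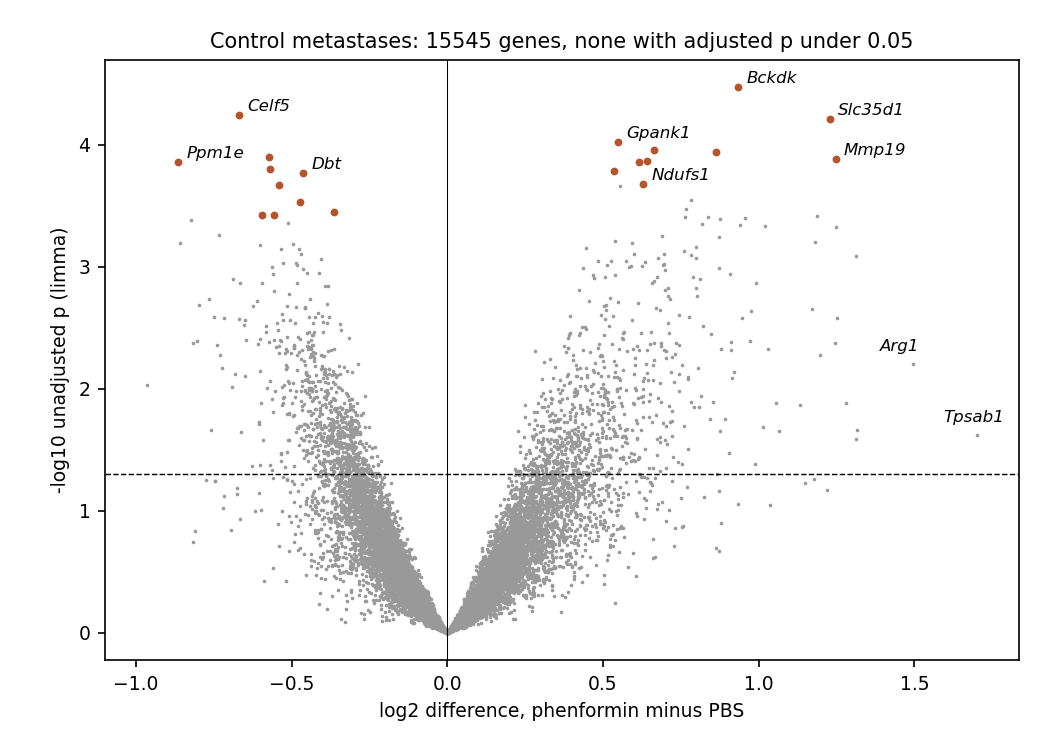
Each point is 1 of the 15545 tested genes, with its log2 difference (phenformin minus PBS, control metastases) on the x axis and the negative log10 of limma's unadjusted p on the y axis; the dashed line marks the 0.05 level and the 20 coloured points are the genes of smallest p, 10 in each direction. Points extend further to the right than to the left, with 25 genes above 1 and 0 below −1.

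The smallest p belonged to Bckdk, which encodes the kinase that switches off the branched-chain ketoacid dehydrogenase, the committed step in breaking down leucine, isoleucine and valine. Its log2 signal was 7.95, 8.12, 7.33, 7.62 and 7.90 in the 5 phenformin arrays, against 6.35, 7.26, 7.31, 6.50 and 6.85 in the 5 PBS arrays. The groups did not overlap, although phenformin array 3 lay only just above PBS arrays 2 and 3. The difference was 0.93 (SE 0.18, a 1.91-fold ratio; unadjusted p = 3.38e-05, adjusted p = 0.188 by limma with Benjamini-Hochberg correction).

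Dbt, which encodes the core transacylase of the same dehydrogenase complex, stood among the 10 genes of smallest p with a negative difference. It had 6.54, 6.46, 6.52, 6.65 and 6.64 in the phenformin arrays, against 7.12, 7.10, 6.86, 6.89 and 7.15 in the PBS arrays. Every phenformin array lay below every PBS array, and the difference was −0.46 (SE 0.10, adjusted p = 0.188). A list of 16 genes of branched-chain amino acid breakdown was therefore drawn up after these values were seen. Of its 15 tested members 3 had an unadjusted p under 0.05, namely Bckdk, Dbt and the dehydrogenase gene Acadsb (−0.49, SE 0.13, adjusted p = 0.223), and 0 passed the adjusted threshold. Over all genes the share at an unadjusted p under 0.05 was 9.64%, and since Bckdk and Dbt prompted the list, this count largely restates their values. The list's median difference was 0.04 with 11 members above 0, so the remaining members did not share a direction with Dbt and Acadsb. The other subunit genes lay near 0, with Bckdha at 0.00 (SE 0.14) and Bckdhb at 0.11 (SE 0.19), and the phosphatase gene Ppm1k, which opposes the kinase, lay at 0.01 (SE 0.18).

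Ndufs1, which encodes the largest iron-sulfur subunit of complex I, was the one gene of the drug's own target complex among the 20 of smallest p. It had 6.70, 7.07, 7.13, 6.65 and 7.14 in the phenformin arrays, against 6.52, 6.13, 6.10, 6.15 and 6.63 in the PBS arrays. The lowest phenformin array, at 6.65, lay just above PBS array 5, so the groups did not overlap. The difference was 0.63 (SE 0.14, adjusted p = 0.199).

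Tight groups were seen for Gpank1, which encodes a protein with G-patch and ankyrin domains. It averaged 8.20 ± 0.06 in phenformin arrays and 7.65 ± 0.07 in PBS arrays (SD, n = 5 each), a difference of 0.55 (SE 0.12, adjusted p = 0.188). Its lowest phenformin array had 8.13 and its highest PBS array 7.72. Slc35d1, a nucleotide-sugar transporter of the endoplasmic reticulum, had a difference of 1.23 (SE 0.25), with 7.10 to 8.13 in phenformin arrays and 5.37 to 7.20 in PBS arrays. Mmp19, a matrix metalloproteinase, had one of 1.25 (SE 0.27), with 6.71 to 7.50 in phenformin arrays and 4.998 to 6.92 in PBS arrays. Both of these larger differences came with overlapping groups and a wide spread among PBS arrays.

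The other genes of smallest p with a positive difference covered unrelated functions. They were the endosomal chloride-proton exchanger Clcn3 (0.66), the ribosome biogenesis factor Tex10 (0.86), the methyltransferase Icmt that finishes prenylated proteins such as Ras (0.64), the mismatch repair gene Msh3 (0.62) and the attractin-like gene Atrnl1 (0.54). For Clcn3, Tex10 and Msh3 the lowest phenformin array lay above the highest PBS array. Tex10, for example, had 7.97 to 8.77 in phenformin arrays and 7.003 to 7.75 in PBS arrays.

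Among the genes with a negative difference, the smallest p belonged to Celf5, an RNA-binding splicing regulator. It had 5.24, 5.34, 5.32, 5.29 and 5.74 in the phenformin arrays, against 5.95, 5.85, 6.32, 5.97 and 6.18 in the PBS arrays. Phenformin array 5 stood apart from the other phenformin arrays but still lay below all PBS arrays. The difference was −0.67 (SE 0.14, adjusted p = 0.188).

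Ppm1e, a phosphatase that acts on calmodulin-dependent kinases and on AMPK, had the most negative difference of these genes, −0.87 (SE 0.19). It had 6.19, 5.86, 5.52, 5.89 and 6.22 in the phenformin arrays, against 7.23, 7.19, 6.65, 6.75 and 6.18 in the PBS arrays. PBS array 5 lay within the phenformin range, so the groups overlapped. The neurotrophic factor co-receptor Gfra1 had a difference of −0.57 and did not overlap, with 7.11 to 7.30 in phenformin arrays and 7.56 to 7.999 in PBS arrays. The remaining genes were the ubiquitin ligase adaptor Kctd13 (−0.57), the adaptor Sla2 that dampens lymphocyte receptor signalling (−0.54), Lrrc61 (−0.47), the elastase gene Cela2a (−0.36), the connexin gene Gjd3 (−0.59) and the SR protein gene Srsf12 (−0.56). Apart from Gfra1, group means of these 10 genes lay between 5.39 and 7.02, where the arrays had median signals of 6.55 to 6.63. The phenformin means of Celf5 (5.39), Gjd3 (5.64) and Ppm1e (5.94) were dim, with median negative controls at 4.61 to 5.05.

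**Figure D2:**
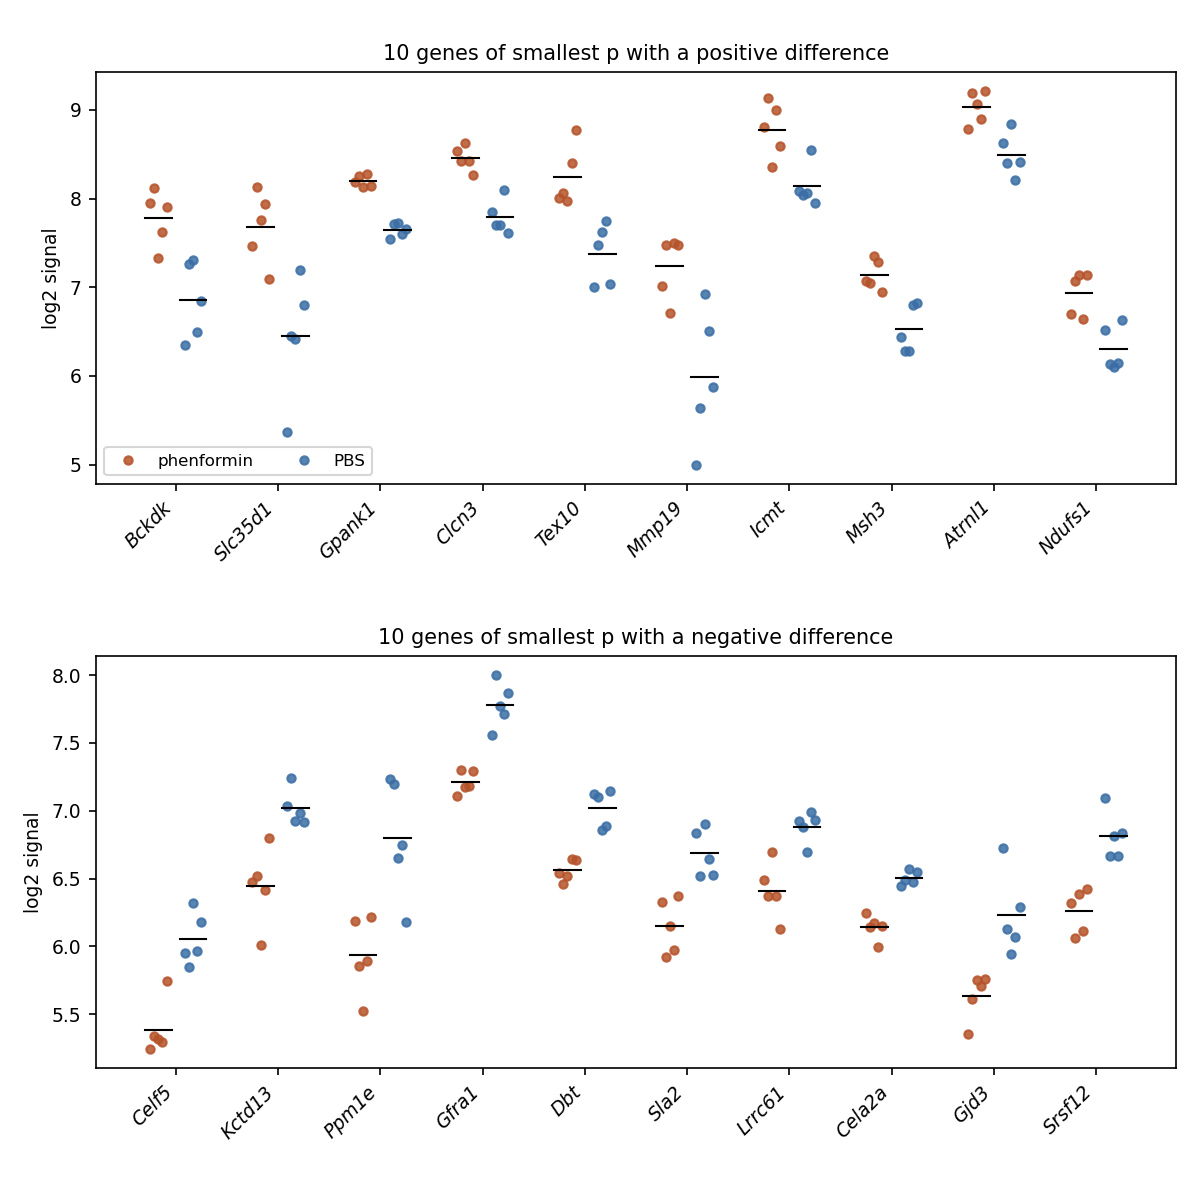
Log2 signal per array for the 10 genes of smallest p with a positive difference (upper panel) and the 10 with a negative difference (lower panel), phenformin arrays left of PBS arrays, with black lines at group means. For 14 of the 20 genes the groups do not overlap, against 1.28% of all tested genes, but the 20 were picked for small p on these arrays. No adjusted p is under 0.188.

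Adjusted p-values of these 20 genes ran from 0.188 to 0.217, and the sizes of their differences from 0.36 to 1.25. The same drug in the PGC-1alpha line gave a difference of opposite sign for 15 of the 20. The share of opposite signs over all genes was not computed, so this count has no background to be read against. For Bckdk the PGC-1alpha metastases averaged 7.17 ± 0.12 under phenformin and 7.30 ± 0.30 under PBS (SD, n = 6 each), a difference of −0.14 (SE 0.17). The difference between the lines' responses was itself tested for every gene as an interaction. It passed for 0 of 15545 genes in limma, with a smallest adjusted p of 0.173, while 1724 genes had an unadjusted p under 0.05 (11.1%). The 20 genes were picked for their value in the control line, which the interaction reuses, so their interaction values are no separate evidence.

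The 5 smallest interaction p-values belonged to Gpank1, Rnf150, Sla2, Psat1 and Ndufs1. Psat1, a serine synthesis enzyme and a target of ATF4, averaged 8.79 ± 0.27 under phenformin and 8.46 ± 0.33 under PBS in control metastases (SD, n = 5 each), a difference of 0.33 (SE 0.17). In PGC-1alpha metastases it averaged 7.93 ± 0.25 under phenformin and 8.70 ± 0.24 under PBS (SD, n = 6 each), a difference of −0.77 (SE 0.15). The interaction was 1.10 (SE 0.23, adjusted p = 0.173). Ndufs1 had an interaction of 0.93 (SE 0.19), with a difference of −0.30 (SE 0.13) in the PGC-1alpha line. The ubiquitin ligase gene Rnf150 had one of −0.77 (SE 0.15), with −0.41 (SE 0.11) in control and 0.36 (SE 0.10) in PGC-1alpha metastases. Each of these 3 genes had opposite signs in the lines, and none of their interactions passed. For comparison, phenformin against PBS within the PGC-1alpha line also called 0 genes (smallest adjusted p 0.586), with 674 genes at an unadjusted p under 0.05 (4.34%).

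Genes were next grouped into 31 pathway lists and 14 lists of cell type markers. Of the 796 distinct genes tested in these 45 lists, 0 passed and 67 had an unadjusted p under 0.05 (8.42%), below the 9.64% of all genes. List medians ran from −0.36 to 0.26, with 21 above 0 and 24 below.

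Complex I, on which the drug acts, had no shared direction. Of its 38 tested subunit and assembly genes 18 had a difference above 0 and 20 below, with a median of −0.01, and 0 passed. Besides Ndufs1, the members lay between −0.25 (Ndufa8) and 0.17 (Ndufb5). Ndufs3, a core subunit, averaged 11.22 ± 0.21 in phenformin arrays and 11.35 ± 0.22 in PBS arrays (SD, n = 5 each), and Ndufv1, the NADH-binding subunit, had a difference of 0.14 (SE 0.17). For 37 of the 38 genes the 95% interval lay within a 1.5-fold difference in either direction, and for all 38 within a 2-fold difference. The mean over the list was 9.75 to 10.16 in phenformin arrays and 9.82 to 10.06 in PBS arrays.

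The later respiratory complexes had more genes below 0 than above, by small amounts. Of 39 tested genes of complexes II to IV and ATP synthase 12 were above 0 and 27 below, with a median of −0.04. Sdha, the flavoprotein of complex II, had the largest difference, 0.49 (SE 0.19, adjusted p = 0.409), with 7.33 to 7.98 in phenformin arrays and 6.58 to 7.64 in PBS arrays. The citrate cycle had 7 of 18 genes above 0 (median −0.04) and the mitochondrial ribosome 14 of 39 (median −0.04). In each of these lists 0 genes passed.

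Genes that build, copy and guard mitochondria gave scattered values. Of 23 mitochondrial biogenesis genes 13 were above 0, with a median of 0.02. Polg2, the accessory subunit of the mitochondrial DNA polymerase, had 7.68, 7.68, 7.44, 7.58 and 7.54 in the phenformin arrays, against 6.47, 6.95, 7.45, 7.15 and 7.20 in the PBS arrays. PBS array 3 just reached the phenformin range, and the difference was 0.54 (SE 0.15, adjusted p = 0.228). The helicase gene Twnk, which unwinds the same DNA, had 0.41 (SE 0.14), while the packaging factor Tfam had 0.28 (SE 0.21) and the import gene Timm50 −0.34 (SE 0.12). Ppargc1b, a relative of PGC-1alpha, averaged 6.17 ± 0.21 in phenformin arrays and 6.45 ± 0.24 in PBS arrays (SD, n = 5 each).

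The mitochondrial stress and quality control list had 12 of 17 genes above 0 and a median of 0.04. The chaperonin gene Hspd1 had a difference of 0.32 (SE 0.13), the matrix unfoldase gene Clpx 0.41 (SE 0.17) and the mitophagy receptor gene Fundc1 0.31 (SE 0.13). Fgf21, a hormone released from cells with mitochondrial stress, had −0.44 (SE 0.18), with 4.93 to 5.39 in phenformin arrays and 5.25 to 6.12 in PBS arrays. Its adjusted p was 0.439. These genes thus did not share a direction.

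Glycolysis and the hypoxia response had positive differences in most members. Of 22 glycolytic genes 20 were above 0, with a median of 0.19 against −0.01 over all genes, and 0 passed. At an unadjusted p under 0.05 there were 4 higher and 1 lower under phenformin, where all genes gave 4.7% higher and 4.93% lower. The list's mean signal was 8.79, 8.78, 8.75, 8.95 and 9.01 in the phenformin arrays, against 8.66, 8.62, 8.88, 8.54 and 8.36 in the PBS arrays. PBS array 3 lay above 3 phenformin arrays, so the groups overlapped.

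Hk1, a hexokinase that phosphorylates glucose on entry, had the largest difference of the list, 1.197 (SE 0.39, adjusted p = 0.316). Its phenformin arrays ranged from 6.46 to 8.44 and its PBS arrays from 5.59 to 7.17. Pdk1, the kinase that keeps pyruvate out of the citrate cycle, averaged 7.80 in phenformin arrays and 6.89 in PBS arrays, a difference of 0.91 (SE 0.29, adjusted p = 0.312). The lactate exporter gene Slc16a3 had 0.68 (SE 0.33) and the ATP-producing enzyme gene Pgk1 0.47 (SE 0.22). Other steps of the pathway lay closer to 0: Hk2 had 0.41 (SE 0.29), the activator of phosphofructokinase Pfkfb3 0.30 (SE 0.22), the lactate dehydrogenase gene Ldha 0.11 (SE 0.11) and the glucose transporter gene Slc2a1 0.11 (SE 0.16). Slc2a3, a second glucose transporter, had −0.65 (SE 0.20, adjusted p = 0.312), but 3 of its 5 phenformin arrays were dimmer than their own median negative control. For glycolysis, 10 of 22 intervals lay within a 1.5-fold difference, fewer than in the complex I list.

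In the hypoxia response 17 of 19 genes were above 0, with a median of 0.23. The list's mean signal was 8.84, 8.91, 8.98, 9.10 and 9.12 in the phenformin arrays, against 8.76, 8.85, 9.04, 8.53 and 8.44 in the PBS arrays. PBS array 3 lay above phenformin arrays 1, 2 and 3, so the groups overlapped. The procollagen hydroxylase P4ha1 averaged 9.41 in phenformin arrays and 8.89 in PBS arrays, without overlap (0.52, SE 0.21, adjusted p = 0.433). The histone demethylase Kdm3a had 8.87, 9.15, 9.21, 9.54 and 9.39 in the phenformin arrays, against 8.55, 8.88, 8.98, 8.73 and 8.48 in the PBS arrays. Phenformin array 1 lay within the PBS range, and the difference was 0.51 (SE 0.18, adjusted p = 0.368). Adm, a vasodilator peptide, had 0.50 (SE 0.31), the placental growth factor gene Pgf 0.62 (SE 0.32) and Vegfa 0.12 (SE 0.13). The median of the hypoxia list was between 0.16 and 0.29 when single arrays were left out, and that of glycolysis between 0.11 and 0.24. Without PBS arrays 1 and 5 together, the hypoxia median was 0.14.

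**Figure D3:**
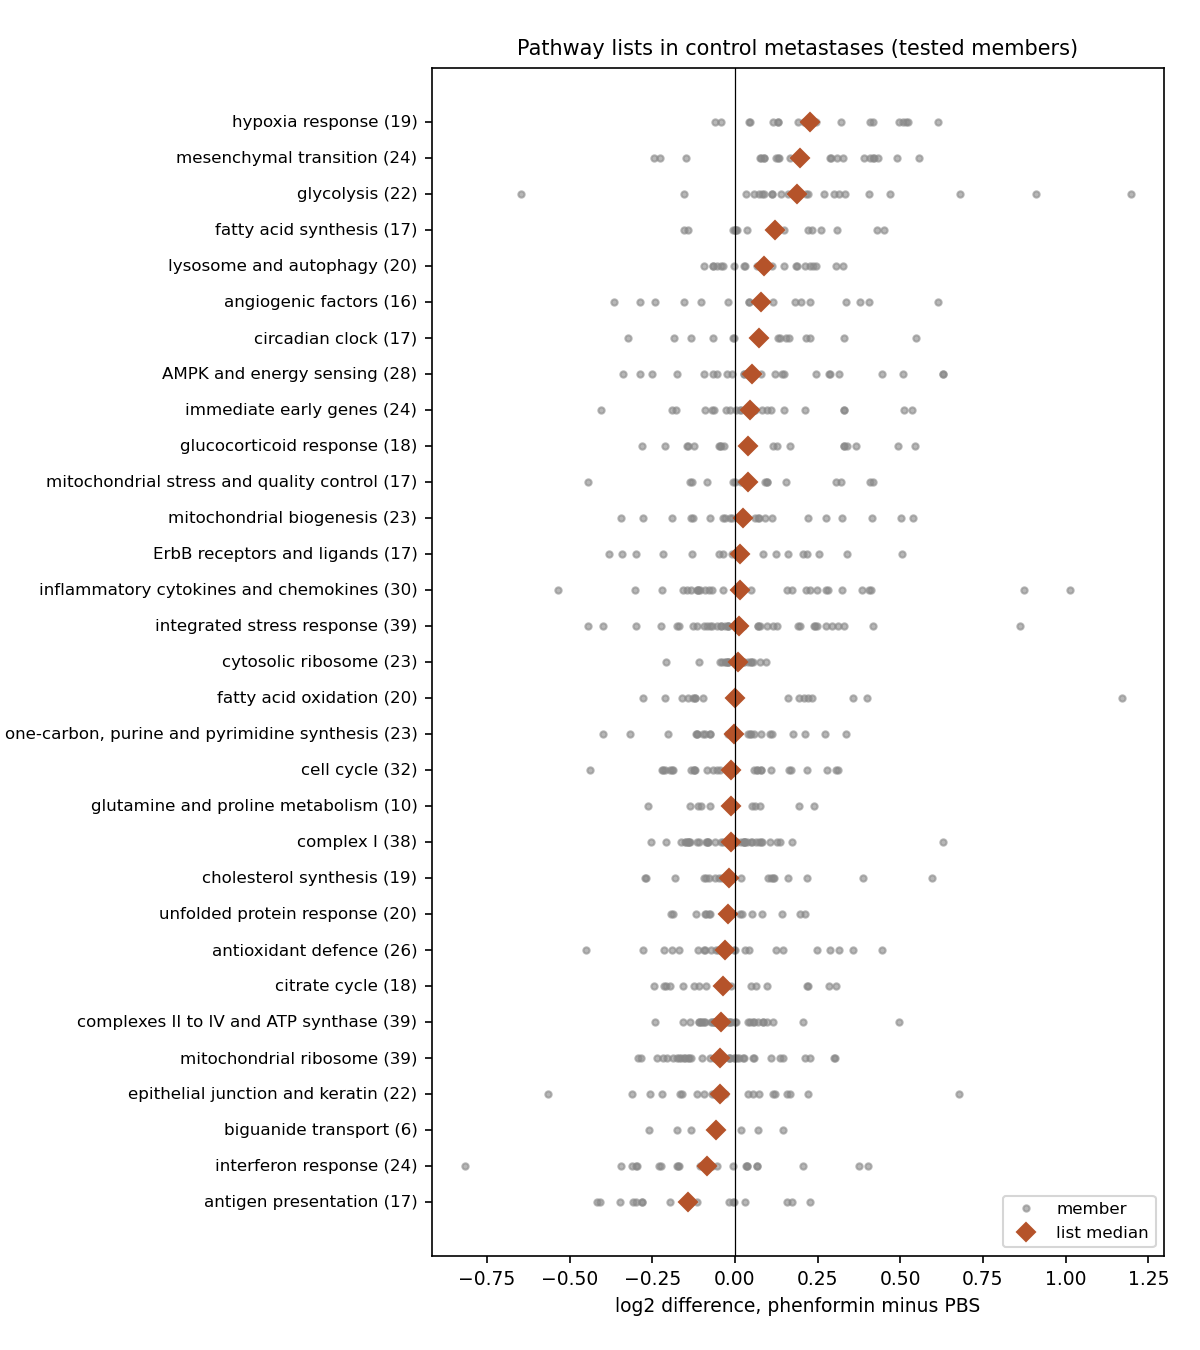
Log2 differences (phenformin minus PBS, control metastases) of the tested members of 31 pathway lists, 1 grey point per gene and a diamond at the list's median, with the number of tested members in brackets. The hypoxia, mesenchymal and glycolysis lists stand furthest to the right (0.23, 0.20 and 0.19) and antigen presentation furthest to the left (−0.14), while complex I straddles 0.

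The integrated stress response, the ATF4 programme that complex I inhibitors are known to evoke in cultured cells, split evenly. Of 39 genes 20 were above 0 and 19 below, with a median of 0.01 and 0 passing. Atf4 itself averaged 10.99 ± 0.16 in phenformin arrays and 10.92 ± 0.23 in PBS arrays (SD, n = 5 each). Its targets went either way: the glutathione-degrading enzyme gene Chac1 had 0.29 (SE 0.14), the amino acid transporter gene Slc7a5 0.42 (SE 0.18), the stress regulator Nupr1 0.31 (SE 0.14) and the mitochondrial folate enzyme gene Mthfd2 −0.40 (SE 0.17). Asns, the asparagine synthetase gene, had 0.08 (SE 0.19), Ddit3, which encodes CHOP, 0.19 (SE 0.23) and the pseudokinase gene Trib3 −0.07 (SE 0.14). For 27 of the 39 genes the interval lay within a 1.5-fold difference. The members lay between −0.44 (Fgf21) and 0.86 (Slc7a3). The mean over the list was 8.36, 8.25, 8.33, 8.38 and 8.42 in the phenformin arrays, against 8.28 to 8.32 in PBS arrays. Phenformin array 2 lay below all PBS arrays and the other phenformin arrays lay above them, array 3 only just.

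The unfolded protein response had 7 of 20 genes above 0 and a median of −0.02. In limma 0 genes of the list had an unadjusted p under 0.05, where all genes gave 9.64%, and 0 passed. The list's intervals were narrow, and all 20 lay within a 1.5-fold difference.

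In the AMPK and energy sensing list 19 of 28 genes were above 0, with a median of 0.05. The catalytic subunit genes Prkaa1 (0.05, SE 0.12) and Prkaa2 (0.28, SE 0.29) did not pass. Rptor, the scaffold of mTORC1, had 8.01, 8.88, 7.79, 8.57 and 7.78 in the phenformin arrays, against 7.93, 7.62, 7.64, 7.86 and 6.84 in the PBS arrays. PBS array 5 was the lowest by far, and the difference was 0.63 (SE 0.22, adjusted p = 0.359). Tsc1, an upstream brake on the same kinase complex, had 0.63 (SE 0.23, adjusted p = 0.388). Of the paired glucose-sensing transcription factors, Mlxip had 0.44 (SE 0.20) and Mlxipl −0.34 (SE 0.15), and their target Txnip had 0.05 (SE 0.14).

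Transporters that can carry biguanides had no shared direction, with 3 of 6 tested genes above 0 (median −0.06). The efflux pump genes Slc47a1 and Slc47a2 had 0.07 (SE 0.17) and −0.26 (SE 0.18).

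Lipid synthesis genes gave a small positive median. In the fatty acid synthesis list 14 of 17 genes were above 0 (median 0.12). The mean over that list was 8.96 to 9.07 in phenformin arrays and 8.84 to 8.93 in PBS arrays, without overlap, but the list's median was 0.03 without phenformin array 2. Dgat1, which makes triglyceride, had 0.45 (SE 0.19, adjusted p = 0.443) and the elongase gene Elovl6 0.26 (SE 0.12). The rate-limiting Acaca (0.12, SE 0.11) and the synthase gene Fasn (0.01, SE 0.12) lay nearer 0.

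Cholesterol synthesis had 9 of 19 genes above 0 (median −0.02). Insig1, which holds back sterol-dependent gene activation, had 8.22, 8.64, 8.27, 8.44 and 8.58 in the phenformin arrays, against 8.21, 8.02, 7.58, 7.79 and 7.57 in the PBS arrays. Phenformin array 1 lay barely above PBS array 1, and the difference was 0.60 (SE 0.19, adjusted p = 0.312). The synthesis enzymes Hmgcs1 (0.11, SE 0.25) and Sqle (0.10, SE 0.14) lay close to 0.

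In fatty acid oxidation 10 of 20 genes were above 0 and the median was 0.00. Fabp4, a fatty acid carrier of adipocytes, capillary endothelium and macrophages, had 9.54, 10.01, 10.14, 9.10 and 9.48 in the phenformin arrays, against 8.80, 8.32, 9.20, 8.22 and 7.87 in the PBS arrays. Only PBS array 3 reached the phenformin range. The difference was 1.17 (SE 0.34, adjusted p = 0.285). The thiolase gene Acaa2 had 0.36 (SE 0.13).

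One-carbon and nucleotide synthesis had 11 of 23 genes above 0 (median 0.00), with opposite values in 2 mitochondrial folate enzyme genes, Mthfd1l (0.34, SE 0.14) and Mthfd2 (−0.40, SE 0.17). Glutamine and proline metabolism had 5 of 10 above 0 (median −0.01), with Prodh, the proline dehydrogenase gene, at −0.26 (SE 0.13). In antioxidant defence 9 of 26 were above 0 (median −0.03). Nfe2l2, which encodes the regulator NRF2, averaged 5.94 ± 0.29 in phenformin arrays and 6.39 ± 0.31 in PBS arrays (SD, n = 5 each), a difference of −0.45 (SE 0.16, adjusted p = 0.369). Its target Nqo1 had 0.44 (SE 0.22), near background with 1 phenformin and 3 PBS arrays below their negative controls, and Hmox1, another target, had −0.17 (SE 0.26).

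Proliferation genes showed no common direction. Of 32 cell cycle genes 13 were above 0 (median −0.01). E2f1, a transcription factor for entry into DNA synthesis, had 0.31 (SE 0.15, adjusted p = 0.498). The proliferation marker Mki67 averaged 9.86 ± 0.19 in phenformin arrays and 9.93 ± 0.55 in PBS arrays, and the topoisomerase gene Top2a 8.24 ± 0.36 in phenformin arrays and 8.43 ± 0.46 in PBS arrays (SD, n = 5 each). Myc had 0.22 (SE 0.18). The cytosolic ribosome covered a narrow range, with 14 of 23 genes above 0, a median of 0.01 and all 23 intervals within a 1.5-fold difference.

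In the ErbB receptor and ligand list 9 of 17 genes were above 0 (median 0.02). Btc, which encodes the ligand betacellulin, had 9.36, 8.76, 9.25, 9.35 and 9.37 in the phenformin arrays, against 8.88, 8.99, 8.87, 8.72 and 8.09 in the PBS arrays. Phenformin array 2 stood below the other phenformin arrays, within the PBS range. The difference was 0.50 (SE 0.15, adjusted p = 0.281). Errfi1, a feedback inhibitor of the same receptors, had 0.34 (SE 0.13, adjusted p = 0.421).

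Immediate early genes, which growth factors and tissue handling induce within minutes, had 16 of 24 above 0 (median 0.05). Ier2 averaged 7.10 ± 0.15 in phenformin arrays and 6.77 ± 0.08 in PBS arrays without overlap (SD, n = 5 each), a difference of 0.33 (SE 0.11, adjusted p = 0.323). Egr1 (0.51, SE 0.20) and Egr2 (0.54, SE 0.22) had positive differences and Klf4 a negative one (−0.40, SE 0.14). Clock genes had 11 of 17 above 0 (median 0.07), led by the repressor gene Nr1d2 at 0.55 (SE 0.16, adjusted p = 0.277). It had 7.24 to 8.30 in phenformin arrays and 6.96 to 7.25 in PBS arrays. The time of day of collection is not given.

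Glucocorticoid targets had 9 of 18 above 0 (median 0.04). The kinase gene Sgk1 had 8.21, 8.38, 8.43, 8.66 and 7.78 in the phenformin arrays, against 7.64, 7.12, 8.23, 7.85 and 7.90 in the PBS arrays. Phenformin array 5 lay within the PBS range, and the difference was 0.54 (SE 0.19, adjusted p = 0.352). Tsc22d3, which encodes the leucine zipper protein GILZ, had 0.49 (SE 0.22, adjusted p = 0.482) without overlap of the groups. In lysosome and autophagy genes 13 of 20 were above 0 (median 0.09), with the phagophore gene Wipi1 at 0.31 (SE 0.12).

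The mesenchymal transition list had 21 of 24 genes above 0 and a median of 0.20 (0.32 without PBS array 3, and 0.10 with the immune score as covariate), while epithelial junction and keratin genes had 9 of 22 above 0 and a median of −0.05. In both lists 0 genes passed. Tgfb1, a cytokine that drives the transition, had 9.77, 10.12, 9.41, 9.78 and 10.01 in the phenformin arrays, against 9.32, 9.09, 9.91, 9.76 and 9.06 in the PBS arrays. The groups overlapped, and the difference was 0.39 (SE 0.16, adjusted p = 0.439). The matrix gene Tnc had the largest difference of the list, 0.56, and the intermediate filament gene Vim had 0.13 (SE 0.12). Cdh1, which encodes E-cadherin, had −0.06 (SE 0.15). The desmosome gene Pkp3 had −0.56 (SE 0.21, adjusted p = 0.382), with phenformin array 2 at 4.98 against 6.01 or more in the other phenformin arrays. Without phenformin array 2 its difference was −0.28.

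Fibroblasts express many genes of the mesenchymal list, so the fibroblast and smooth muscle markers are given beside it. Their mean level was 8.02 to 8.66 in phenformin arrays and 7.73 to 8.42 in PBS arrays, a difference of 0.14. Of the 13 markers, 0 averaged below the negative controls, but dim genes had been left out of testing, which largely fixed that count. The part of these cells in the mesenchymal values was not tested. Lum, a collagen-binding proteoglycan of fibroblasts, had 6.44, 8.26, 7.18, 8.10 and 6.82 in the phenformin arrays, against 5.80, 5.76, 6.28, 6.31 and 6.23 in the PBS arrays. The groups did not overlap, and the difference was 1.28 (SE 0.48, adjusted p = 0.388). Angiogenic factors had 10 of 16 genes above 0 and a median of 0.08.

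Antigen presentation genes stood furthest on the negative side among the pathway lists. In antigen presentation 4 of 17 genes were above 0, with a median of −0.14 and 0 passing. Without PBS array 2 the median was −0.06. The class II chain gene H2-Eb1 averaged 10.15 in phenformin arrays and 10.57 in PBS arrays, a difference of −0.42 (SE 0.18, adjusted p = 0.456). H2-Oa, which modulates class II loading, had −0.41 (SE 0.18) and Tapbp, which loads class I, −0.30 (SE 0.13). The interferon response had 8 of 24 genes above 0 and a median of −0.08, which was −0.26 without phenformin array 1 and 0.02 without phenformin array 2. Cxcl9, an interferon-induced T cell attractant, had −0.82 (SE 0.59). Inflammatory cytokines and chemokines had 16 of 30 above 0 (median 0.01), with the NF-kB inhibitor gene Tnfaip3 at −0.53 (SE 0.24) and Il6 at 1.01 (SE 0.41), of which 2 PBS arrays lay below their negative controls.

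T and NK cell markers had a median of −0.36, with 4 of 12 genes above 0. The median was −0.19 without PBS array 5. The T cell receptor chain genes Cd3e (−0.48, SE 0.19) and Cd3d (−0.66, SE 0.27) and the cytotoxic co-receptor gene Cd8a (−0.53, SE 0.24) had unadjusted p under 0.05 and adjusted p of 0.433, 0.435 and 0.495. Cd3e had 5.40, 5.03, 4.86, 5.11 and 5.34 in the phenformin arrays, against 5.84, 6.24, 5.70, 5.04 and 5.32 in the PBS arrays. These are dim signals close to the negative controls. The mean level of the 12 markers was 5.57 to 6.33 in phenformin arrays and 5.92 to 6.45 in PBS arrays (difference −0.25, exact permutation p = 0.127, adjusted p = 0.889). The part of T cells in the antigen presentation and interferon values was not tested.

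Large differences lay on the positive side. Log2 differences above 1 were found for 25 genes (0.161%) and below −1 for 0. Of the 25, 21 had an unadjusted p under 0.05 and 3 had groups that did not overlap, namely Lum, the proton channel gene Otop1 and Tmem108. Over all genes these shares were 9.64% and 1.28%, but the 25 were picked for large differences in the same arrays. Adjusted p-values of the 25 ran from 0.188 to 0.575, so none passed. The number above 1 depended on single arrays: it was 42 without phenformin array 1, 46 without PBS array 3 and 11 with array weights. The number below −1 was 3 without phenformin array 3, 5 without PBS array 1 and 4 without PBS array 3. Of the 25, 16 had a negative difference in the PGC-1alpha line, a share not computed over all genes. At least 1 array lay below its median negative control for 9 of the 25. Zfp217 was among those 9, with 3 phenformin arrays and all 5 PBS arrays below.

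Of the 25 genes, 3 stand in the list of basophil and mast cell markers, namely Tpsab1, Cpa3 and Mcpt4. Mast cells are tissue-resident granulocytes that store proteases and histamine. Tpsab1, a tryptase, had 6.93, 9.80, 9.64, 8.88 and 6.74 in the phenformin arrays, against 5.49, 6.64, 8.21, 7.88 and 5.27 in the PBS arrays. Phenformin arrays 2, 3 and 4 were high and the other two lay below PBS arrays 3 and 4. The difference was 1.70 (SE 0.70, adjusted p = 0.439). Cpa3, the mast cell carboxypeptidase, followed the same arrays, with 6.46, 8.50, 8.67, 8.21 and 6.36 in the phenformin arrays, against 5.24, 6.16, 7.57, 7.05 and 5.60 in the PBS arrays (1.32, SE 0.54). The chymase gene Mcpt4 (1.15, SE 0.58), and Mcpt2 (1.22, SE 0.64) and the receptor gene Mrgprb1 (1.31, SE 0.55), which are outside that list, had their highest values in phenformin arrays 2 and 3, or in 3 and 4. For Mcpt4 2 PBS arrays, and for Mrgprb1 1 phenformin and 1 PBS array, lay below their negative controls. With array weights the Cpa3 difference was 0.68.

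The basophil and mast cell list as a whole had 10 of 11 genes above 0 and a median of 0.18. Its mean level was 6.68, 7.39, 7.82, 7.37 and 6.71 in the phenformin arrays, against 6.39, 6.49, 7.08, 7.03 and 6.51 in the PBS arrays. The difference was 0.49 (exact permutation p = 0.127, adjusted p = 0.889 over 14 marker lists). In the PGC-1alpha line the list's median was −0.32. The interaction for Tpsab1 was 2.47 with an adjusted p of 0.370.

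Among the other genes of the 25 were Arg1, Folr2 and Vsig4, which are known from macrophages but stand outside the macrophage marker list, of which 0 members are in the 25. Arg1, the arginase of alternatively activated macrophages, had 8.29, 8.45, 9.25, 8.92 and 8.92 in the phenformin arrays, against 6.61, 7.18, 9.19, 7.59 and 5.77 in the PBS arrays. PBS array 3 lay within the phenformin range while the other 4 PBS arrays lay below it. The difference was 1.496 (SE 0.499, adjusted p = 0.341). Folr2, a folate receptor of resident macrophages, averaged 8.11 ± 0.85 in phenformin arrays and 6.80 ± 0.66 in PBS arrays (SD, n = 5 each), a difference of 1.31 (SE 0.34, adjusted p = 0.223). The complement receptor gene Vsig4 had 1.03 (SE 0.33).

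Across the macrophage marker list 9 of 11 genes were above 0 and the median was 0.15, or 0.04 with array weights. The mannose receptor gene Mrc1 had 0.44 (SE 0.19, adjusted p = 0.461). The mean level of the list was 7.84 to 8.31 in phenformin arrays and 7.71 to 8.04 in PBS arrays (difference 0.16, exact permutation p = 0.206, adjusted p = 0.944). The remaining genes above 1 included the lysophosphatidic acid receptor gene Lpar1 (1.25), the protease inhibitor gene Serpinb2 (1.13), the Wnt inhibitor gene Dkk2 (1.06) and the dampener of Toll-like receptor signalling Irak3 (1.02).

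**Figure D4:**
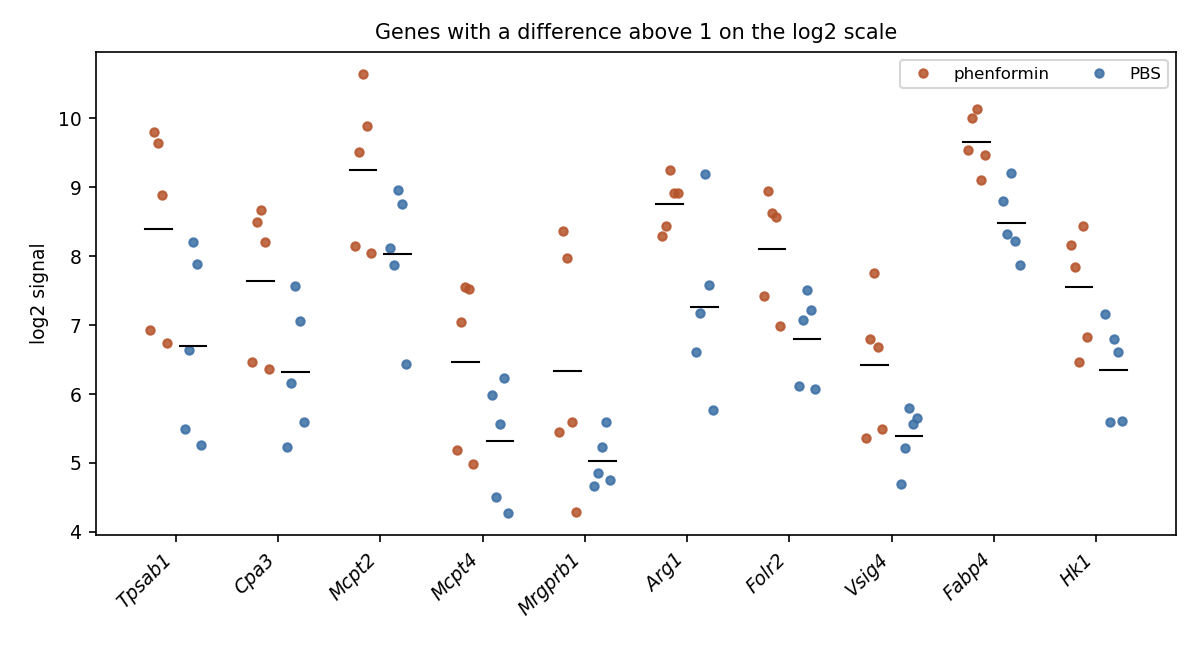
Log2 signal per array for 10 of the 25 genes with a difference above 1, phenformin arrays left of PBS arrays, with black lines at group means. In the mast cell genes Tpsab1, Cpa3 and Mcpt4, 3 phenformin arrays are high and the other 2 lie within the PBS range.

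Levels of the 14 marker lists were then compared between the groups with exact permutation tests over all ways to split the 10 arrays into equal groups. None passed, with adjusted p-values of 0.889 to 0.944. The smallest exact p that 5 arrays against 5 allow is 0.00794, which for a lone list becomes 0.111 after adjustment over the 14 lists, so no single list could pass. Mammary epithelial tumour markers averaged 8.43 ± 0.11 in phenformin arrays and 8.44 ± 0.10 in PBS arrays, and alveolar type 2 markers 10.70 ± 0.14 in phenformin arrays and 10.72 ± 0.11 in PBS arrays (SD, n = 5 each). The tumour list holds general epithelial genes such as Krt18 and Cdh1, and the captured tissue held lung epithelium too. Its level is therefore no measure of tumour content alone.

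Other lists varied widely between single arrays. Club and ciliated cell markers ranged from 6.57 to 8.95 in phenformin arrays and from 6.56 to 8.76 in PBS arrays. The secretoglobin gene Scgb1a1 of club cells had 9.03 to 11.86 in phenformin arrays and 8.21 to 12.22 in PBS arrays. Cardiac muscle markers had 8.85 on phenformin array 3 against 6.55 to 6.92 on the other phenformin arrays and 6.68 to 7.14 on PBS arrays. Their list median was 0.26 with all arrays and −0.18 without that array. Mesothelial markers had 8.52 on phenformin array 2 against at most 7.57 on the other phenformin arrays. Of the markers that had passed the filter on dim genes, 0 averaged below the negative controls over the 10 arrays in any list. In the neutrophil list, the receptor gene Cxcr2 (−0.39, SE 0.19) and the calprotectin gene S100a8 (−0.43, SE 0.22) had negative differences, while 3 of 8 members were above 0. Of mammary markers, the milk protein gene Csn3 had 0.81 (SE 0.27, adjusted p = 0.348), with 5.58 to 6.28 in phenformin arrays and 4.69 to 5.98 in PBS arrays.

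**Figure D5:**
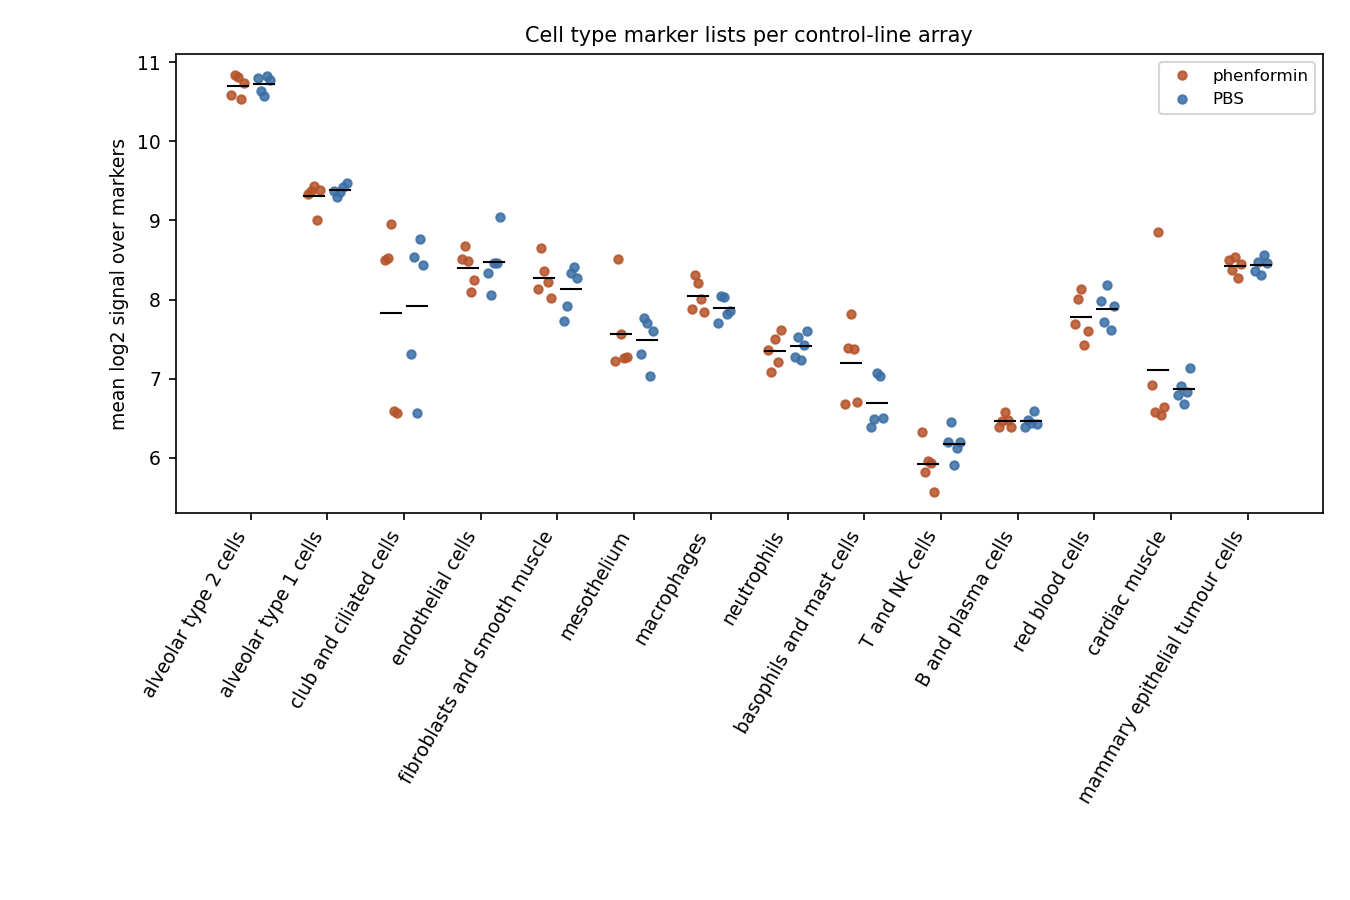
Mean log2 signal over the tested markers of 14 cell type lists, 1 point per array, phenformin arrays left of PBS arrays, with black lines at group means. Mean levels of the alveolar type 2 and mammary epithelial tumour lists lie close between the groups. Club and ciliated markers split widely within both groups, and a single phenformin array stands out for cardiac muscle (8.85).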

How the data were processed

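The authors deposited a log2 signal for each probe set on each array, normalised by them beforehand. The submitters' processing notes name the software oligo. Its version, the background correction and the normalisation are not given in the sources used here. Another deposited table was not used, because the headings of its 22 columns could be tied to no sample title. Of 28815 probe sets, 6609 controls were left out. For each of 19505 symbols the probe set with the highest mean over 22 arrays was kept, and a gene was tested if it exceeded its array's 25th percentile on at least 5 arrays, which left 15545 genes.

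A joint limma model (version 3.58.1, R 4.3.3; lmFit, then eBayes) gave each of the 4 groups a mean, with 18 degrees of freedom left for the residual and 5.67 for the prior, and used the log2 values the authors deposited without transforming them. The contrasts were phenformin minus PBS in the control line and its interaction with the line, both two-sided, with Benjamini-Hochberg adjustment over all tested genes and a threshold of 0.05. A difference is given with its SE from the fit, a group level as mean with SD, and an interval at 95%. The number of arrays limits the precision. Marker list levels were means over tested markers, compared by exact two-sided permutation with adjustment over 14 lists. The labels give no dates or batches, and say nothing on whether equal sample numbers belong together.

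The groups, 31 pathway and 14 marker lists were chosen with earlier results of these data known. The rule named, in each direction, the 10 genes of smallest p where too few passed, the member of smallest p in each list, the 5 genes of smallest interaction p, and Ppargc1a and Erbb2. Other genes were named after their values were seen: those with a difference above 1, list members at an unadjusted p under 0.05 or at a list's extreme, the branched-chain amino acid genes, and 46 genes picked for their role. Alternatives changed the arrays, filter, scaling, probe sets, weights, prior, covariates and replicate block. Plots were made in matplotlib 3.10.9 under Python 3.11.15.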

Additional observations from a re-analysis of the deposited data

Results flagged for a closer look

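In 16 of 246 groups of 5 arrays checked, 1 array stood apart from the other 4 by Dixon's criterion, which chance meets in about 1 of 20 groups. Among phenformin arrays, array 2 was low for Atf4 (10.72 against 11.03 to 11.12) and for Btc (8.76 against 9.25 to 9.37). Array 5 was high for Celf5 (5.74 against 5.24 to 5.34). Array 1 was high for the RNA sensor gene Ifih1 (8.03 against 7.28 to 7.46) and for the atrial peptide gene Nppa (5.77 against 5.30 to 5.34). Array 3 was low for Myc (8.34 against 8.95 to 9.18).

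Marker levels stood apart on 3 phenformin arrays. Array 4 had alveolar type 1 markers at 9.01 against 9.33 to 9.44, array 2 had mesothelial markers at 8.52 against 7.23 to 7.57, and array 3 had cardiac muscle markers at 8.85 against 6.55 to 6.92.

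Among PBS arrays, array 5 was high for Cdh1 (10.82 against 10.46 to 10.51) and low for Rptor (6.84 against 7.62 to 7.93). Array 1 was low for Krt18 (12.23 against 12.65 to 12.77) and for Tfam (5.91 against 6.74 to 7.06). Array 4 was high for Icmt (8.54 against 7.95 to 8.09), array 2 high for Prkaa2 (7.03 against 5.33 to 5.59) and array 3 low for S100a8 (9.56 against 10.02 to 10.13).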

How the results depend on the processing

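The count of 0 genes passing in control metastases was the same in 22 of 23 alternatives, with 0 to 0 when each of the 10 arrays was left out and a smallest adjusted p of 0.0681 (without PBS array 3). With the 10 control-line arrays alone the smallest adjusted p was 0.598, and 1093 genes had an unadjusted p under 0.05, against 1498 in the joint fit. The exception was the replicate block, which takes the label numbers as pairs within each line: 2 genes passed, Fabp4 and Folr2, both higher under phenformin (smallest adjusted p = 0.0162), and 1 list member passed. The check made gave no sign of such pairs: same-numbered arrays had deviations correlated at −0.109 to −0.0147, and 0 of 5 phenformin arrays correlated best with their own number. With only 5 numbers, that check cannot decide whether equal numbers belong together. The interaction count was 0 to 1 when single arrays were left out. The 1 gene was Stard3 without PBS array 2 (1.19, adjusted p = 0.0458), and members passing per list numbered 0 to 0 there. Genes at an unadjusted p under 0.05 made up 6.8% to 11.7% of those tested over the settings. The lowest share, with 1057 genes, came without PBS arrays 1 and 5, and the highest without PBS array 4. Leaving out arrays 1 and 5 was chosen after seeing the data, because they had the lowest weights of the control-line PBS group (0.397 and 0.588). Raw counts ran from 1020 with the stricter filter (9.33%) to 1832 without a filter (9.39%). Genes with a difference above 1 numbered 11 to 46. Those below −1 numbered 0 to 5, with 5 without PBS array 1, 4 without PBS array 3, 3 without phenformin array 3 and 2 without a filter. Among 1553 values of 68 genes named by rule, 0 reversed, but most of these genes were picked for small p in the same arrays. Some genes named only for their role did cross 0. Asns went from 0.08 to −0.13 without PBS array 3, and Mki67 from −0.07 to 0.07 without PBS array 5. Medians of 30 of 45 lists changed sign in at least 1 setting. Those of glycolysis, hypoxia, mesenchymal transition, fatty acid synthesis, antigen presentation, T and NK cells, macrophages, and basophils and mast cells did not. Nor did those of complexes II to IV and ATP synthase, AMPK and energy sensing, immediate early genes and clock genes. Glucocorticoid targets, alveolar type 1 cells and red blood cells also kept the sign of their medians. The stricter filter moved the neutrophil median to −0.37 and that of B and plasma cells to 0.24. Dim genes near the negative controls, 5 arrays a group and tissue of mixed composition limit all values.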

Other observations

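Endothelial markers gave mixed values that belong to no pathway above. Of 14 tested markers 4 had a difference above 0, with a median of −0.10, while the sialomucin gene Emcn averaged 8.28 ± 0.25 in phenformin arrays and 7.68 ± 0.32 in PBS arrays (SD, n = 5 each), a difference of 0.60 (SE 0.28, adjusted p = 0.495 in limma). All 5 phenformin arrays of Emcn, at 7.97 to 8.51, lay above the PBS arrays, at 7.15 to 7.94. The angiopoietin receptor gene Tek had −0.56, and the junction gene Pecam1 had −0.05 (SE 0.21). Alveolar type 1 markers had 2 of 9 above 0, and the water channel gene Aqp5 was one of them (0.38, SE 0.18). The red cell band gene Slc4a1 had −0.29 (SE 0.13).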
